A study of Drosophila melanogaster with 88 samples.

Results

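Knockdown of kay in glia was compared with the glial driver alone in heads of male Drosophila at 5 days of age, in 8 of the 88 libraries of the series. The 4 KayKD libraries come from flies labelled VAPP58SRepo_KayKD and the 4 driver libraries from flies labelled VAPP58SRepo. Both groups therefore carry VAP with the P58S change, the fly counterpart of a human VAPB change found in a familial form of amyotrophic lateral sclerosis, and both carry RepoGal4, which uses the repo promoter to express GAL4 in nearly all glia. The knockdown of kayak (kay) is what the labels add in the KayKD flies. The labels do not name the knockdown construct, its insertion site, a control construct in the driver flies or the endogenous VAP allele, so the knockdown cannot be told apart from a transgene insertion or a strain background that came with it. Nor do they state whether the 4 libraries within each group represent separate vials or sets of flies. P-values here reflect the spread among libraries, which may be technical. The libraries of the comparison were picked by their labels, with earlier results of these data known. Every value below is for gene features of the male count table.

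kay encodes Fos, a basic leucine zipper protein that pairs with Jun (Jra) to form the transcription factor AP-1. AP-1 acts downstream of the JNK kinase cascade, and in fly glia it is known for turning on engulfment genes after neuronal injury. Glia of the fly head feed and insulate neurons, recycle transmitters, clear debris and form the blood-brain barrier. A head sample also holds photoreceptors, muscle, cuticle-secreting epidermis, fat body, haemocytes and the front of the gut, so a change in a glial gene can be diluted and a change outside glia can be seen. In such bulk RNA, fewer cells of a type and less RNA per cell cannot be told apart.

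Reads from the 3′ ends of polyadenylated transcripts were counted, so longer genes do not gain reads by their length. Depth on genes was 1.21 to 5.57 M reads in KayKD libraries and 1.61 to 7.06 M reads in driver libraries, and levels are given in CPM, read counts scaled to a common total of gene reads. In a library where a gene had 0 reads, its level could still be as high as 0.425 to 2.49 CPM (3 reads), depending on depth and for counting error only. The shallowest library of each group, KayKD replicate 4 and driver replicate 3, stood apart from the rest on the first 2 principal components. Their median Spearman correlation with the other libraries of their own group was 0.909 and 0.907, against 0.935 to 0.95 for the other 6. Some of the results that rest on these libraries are given with and without them. No 2 libraries of a group agreed within sampling noise.

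KayKD heads differed from driver heads in both directions (the plot of all genes by level and fold change). Of 9796 genes tested, 173 (1.77%) were higher and 178 (1.82%) lower in KayKD heads than in driver heads at an adjusted p under 0.05 (edgeR's quasi-likelihood test, Benjamini-Hochberg adjustment over all genes tested). These 351 genes, 3.58% of those tested, are called changed below. Before adjustment, 1790 of the 9796 genes had a p under 0.05 by the same test, the background for such counts in the lists below. Of the 351 called genes, 123 differed by more than 1 on the log2 scale, 68 higher and 55 lower, and 36 by more than 2. The 4 KayKD levels lay all above or all below the 4 driver levels for 126 of the 173 higher and 127 of the 178 lower called genes. Over all genes tested, such a separation was seen upward for 3.31% and downward for 3.34%. The number called depended on the libraries: it was 172 without driver replicate 3, 191 without driver replicate 2, 225 without KayKD replicate 3, 629 without driver replicate 1, and 177 without both shallow libraries.

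**Figure D1:**
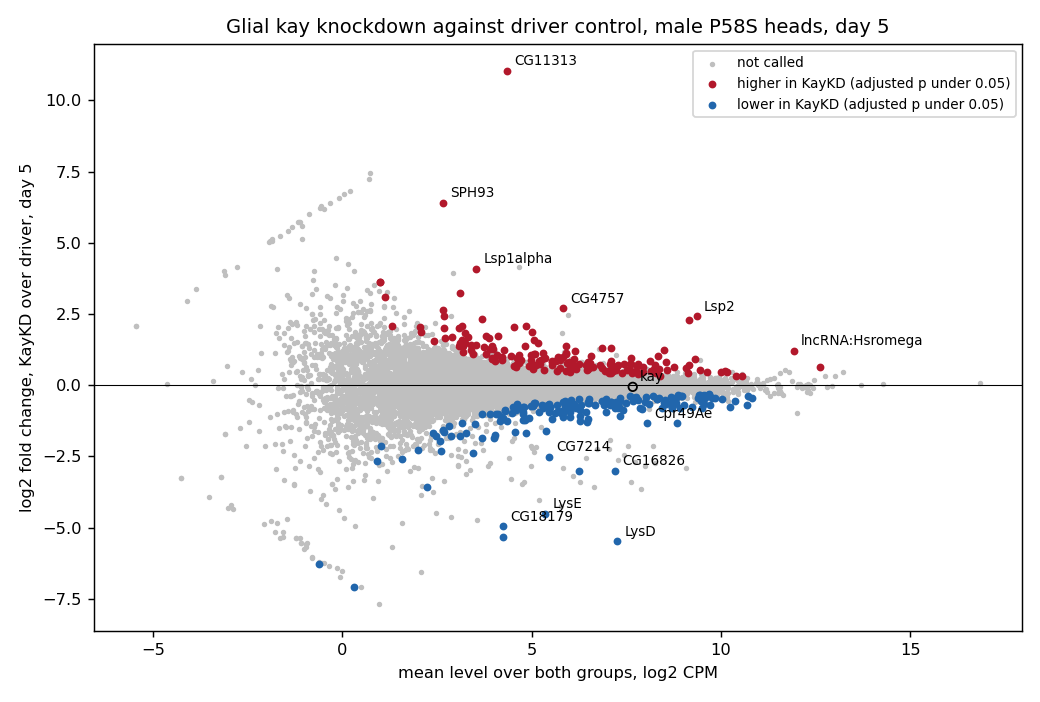
Log2 fold change of KayKD over driver at day 5 against the mean level over both groups (log2 CPM), 1 point per gene tested with at least 1 read in the 8 libraries; red and blue points are the 173 higher and 178 lower genes, and grey points did not pass. CG11313 stands highest at 11.04, LysD lies at -5.47, and kay (open circle) lies at -0.06.

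The transcript that the knockdown targets did not differ measurably in whole heads. kay (3R:29765995-29794113, dm6) had 196, 222, 194 and 185 CPM in KayKD libraries 1 to 4, against 212, 209, 195 and 216 CPM in driver libraries 1 to 4. The KayKD and driver values overlap, and the log2 fold change was -0.06 (SE 0.12, adjusted p = 0.83, edgeR). At day 15 it was -0.05 (adjusted p = 0.92). kay is also transcribed outside glia, and the region that the construct targets is not given, so the labels are neither borne out nor contradicted by this gene. Its partner Jra averaged 20.3 ± 12.3 CPM in KayKD and 12.4 ± 6.1 CPM in driver heads (SD, n = 4 each; adjusted p = 0.34). Vap33, the gene of VAP, had a log2 fold change of 0.04 (adjusted p = 0.85), and w, carried as a marker by many fly transgenes, one of 0.28 (adjusted p = 0.64). In the other arms of the same study, described as overexpressing Kayak, kay passed in KaySCR but not in KayWT heads: at day 5 it averaged 229 ± 23 CPM in KayWT heads (log2 fold change 0.14, adjusted p = 0.56) and 293 ± 28 CPM in KaySCR heads (0.49, adjusted p = 0.014), both against the same 4 driver libraries. In those comparisons 5.59% (KayWT) and 2.6% (KaySCR) of genes tested were called.

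No gene upstream or downstream of AP-1 on the lists examined was called at day 5. Of 19 JNK pathway genes tested, 0 were called by edgeR (1 at an unadjusted p under 0.05), with a median log2 fold change of 0.10 against -0.0005 over all genes. bsk, the JNK itself, was at 0.35 (adjusted p = 0.41) and hep, its kinase, at 0.16 (adjusted p = 0.57). Of 12 tested genes known as JNK or AP-1 targets, 0 were called by edgeR (0 at an unadjusted p under 0.05), with a median of 0.14. puc, the phosphatase that shuts JNK off and its usual reporter, was at 0.04 (adjusted p = 0.92), and Mmp1, a secreted metalloproteinase, at 0.03 (adjusted p = 0.96). The 14 glial engulfment genes gave 0 calls by edgeR (3 at an unadjusted p under 0.05, against 1790 of all 9796 genes) and a median of 0.15. Their receptor drpr was at -0.13 (adjusted p = 0.81) and orion, a neuronal ligand recognised by glia, was the engulfment gene with the lowest p, at 0.37 (adjusted p = 0.13). Over 19 alternative settings these 3 lists gave 0 calls each at day 5, and their medians ranged from -0.0006 to 0.21. At day 15 the JNK pathway list held 0 calls by edgeR, and the target and engulfment lists held 1 higher call each. Their day 15 medians were 0.04, 0.31 and 0.22, in that order. Among 14 tested bZIP factors, 1 rose at day 5: crc, the fly ATF4. It was at 44.9 ± 9.9 CPM in KayKD and 21.7 ± 14.8 CPM in driver heads (SD, n = 4 each, log2 fold change 1.08, adjusted p = 0.042). That call rests on how the libraries combine, since it was lost without each of KayKD replicates 1 to 3 and driver replicates 1 to 3 (adjusted p up to 0.16). Driver replicate 4, at 43.7 CPM, lay within the KayKD range.

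The glial marker lists held 1 called gene, cora of the surface glia. repo, the homeodomain protein of glia whose promoter drives GAL4 here, had 21.8, 25.0, 22.3 and 18.5 CPM in KayKD libraries, against 22.9, 31.2, 41.1 and 27.3 CPM in driver libraries. The highest repo value is that of shallow driver replicate 3, the groups overlap, and the log2 fold change of -0.44 did not pass (adjusted p = 0.27). None of 5 pan-glial, 7 astrocyte-like and 5 cortex or ensheathing markers was called, with medians of -0.05, -0.0031 and -0.0034 on the log2 scale. At an unadjusted p under 0.05 they hold 2, 0 and 0 genes, and every alternative gave 0 calls. Summed over the pan-glial list, levels were 4001 to 6202 CPM in KayKD and 4642 to 6562 CPM in driver libraries. Most of that sum is Gs2, the glial glutamine synthetase, at 5237 ± 1161 CPM in KayKD and 5250 ± 1021 CPM in driver heads (SD, n = 4 each). Of the 6 pan-glial markers on the list, 1 had no read in the KayKD libraries. The 11 surface glia genes had a median of 0.19 (4 at an unadjusted p under 0.05; -0.03 without KayKD replicate 3, 0.05 without KayKD replicate 4, 0.03 without driver replicate 1 and 0.04 without driver replicate 2). Of them cora, a septate junction protein, was called higher (0.44, adjusted p = 0.047), a call lost without each of 5 libraries in turn (KayKD replicates 2 to 4, driver replicates 2 and 3; adjusted p up to 0.22). Of 19 neuronal genes 0 were called by edgeR (2 at an unadjusted p under 0.05), with a median of 0.03. nSyb, the synaptic vesicle SNARE, had the lowest p of these, at 1788 ± 134 CPM in KayKD and 1496 ± 114 CPM in driver heads (adjusted p = 0.09).

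The called gene with the highest fitted log2 fold change is CG11313, a predicted serine protease (FBgn0039798, 3R:30729837-30731165). It was read in all 4 KayKD libraries and in none of the 4 driver libraries. KayKD libraries 1 to 4 held 36.8, 44.5, 33.1 and 48.4 CPM, 590 reads in all, against 0 reads in each driver library. Setting the driver group at 3 reads in all, the level was at least 189.8-fold higher in KayKD heads (adjusted p = 6.9e-08). The gene kept its call in all 19 alternative settings. At day 15 the groups were again apart, with 16.4, 26.4, 39.6 and 24.9 CPM in KayKD libraries and 0, 0.14, 0 and 0 CPM in driver libraries. In the other arms at day 5 it averaged 0.0855 CPM in KayWT and 0.0553 CPM in KaySCR heads, and at day 15 it was at 0 in both. CG11313 lies 0.936 Mb from kay on the same arm.

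**Figure D2:**
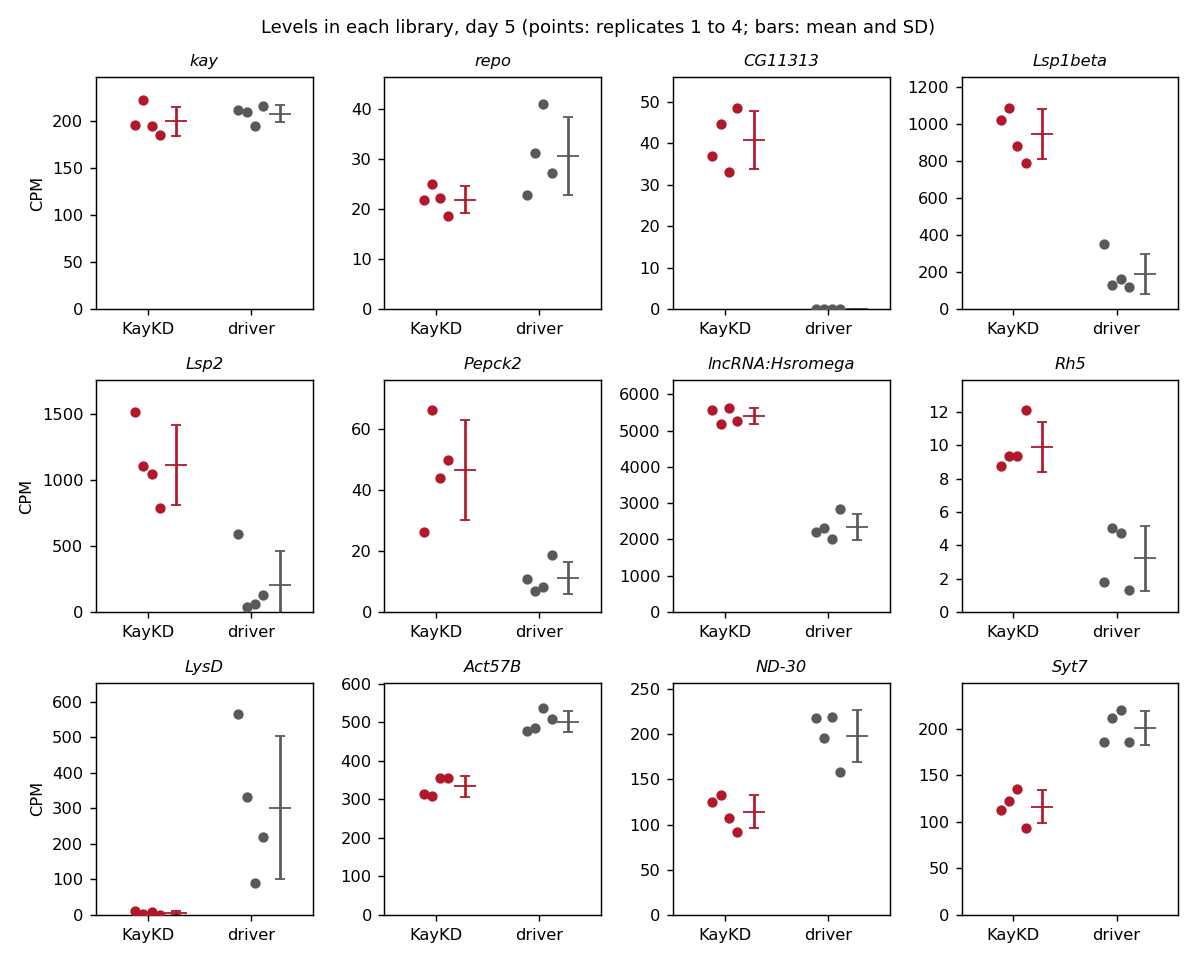
CPM of 12 genes in each library at day 5, KayKD (red) left of driver (grey), with mean and SD beside the points. kay overlaps between groups, CG11313 is at 0 in every driver library, and Lsp1beta, Lsp2, Pepck2, lncRNA:Hsromega and Rh5 lie wholly higher and LysD, Act57B, ND-30 and Syt7 wholly lower in KayKD.

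Some genes of the fat body, the insect counterpart of liver and fat, which surrounds the fly brain, were also higher in KayKD heads. Of 9 fat body markers tested, 3 rose and 0 fell, and all 3 encode hexamerins, storage proteins secreted into the haemolymph: Lsp1beta, Lsp1alpha and Lsp2. Lsp1beta had 1022, 1089, 882 and 788 CPM in KayKD libraries, against 349, 133, 160 and 118 CPM in driver libraries. The lowest KayKD value is above the highest driver value, and the log2 fold change was 2.30 (SE 0.34, adjusted p = 6.6e-05). Lsp2 had 1519, 1105, 1044 and 789 CPM in KayKD libraries, against 587, 40.6, 60.6 and 125 CPM in driver libraries. Driver replicate 1 held several times the Lsp2 level of the other driver libraries, and the call (2.43, adjusted p = 0.048) was lost without each of the other 7 libraries (adjusted p up to 0.16). Lsp1alpha was at 22.3 ± 13.4 CPM in KayKD and 1.05 ± 1.14 CPM in driver heads (4.09, adjusted p = 0.0049) and kept its call without each library in turn. In KayWT heads, against the same driver libraries, Lsp1beta (1.23, adjusted p = 0.02) and Lsp2 (2.44, adjusted p = 0.035) were also called higher by edgeR. The remaining fat body markers did not pass: apolpp, the main lipoprotein, was at 0.32 (adjusted p = 0.093), to at 0.26, Mtp at -0.22 and fit at -1.17. Fbp1, the hexamerin receptor of the larval fat body, and Fbp2 were at 0 in all 8 libraries. The summed level of the list was 9179 to 10240 CPM in KayKD and 5310 to 7697 CPM in driver libraries, without overlap. How far this level moved the other genes below was not tested.

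Of 21 genes of fat synthesis and breakdown, 4 rose and 0 fell: Desat1, a fatty acid desaturase (0.51, adjusted p = 0.0028), bmm, the ATGL lipase (0.73, adjusted p = 0.011), Lsd-2, a perilipin (0.47, adjusted p = 0.036), and Mcad, an acyl-CoA dehydrogenase (0.72, adjusted p = 0.047). The median of the list was 0.04, with 12 members positive and 9 negative. bmm lost its call without driver replicate 2 (adjusted p = 0.072), and Lsd-2 and Mcad lost theirs without each of KayKD replicates 1 to 3, driver replicate 2 or driver replicate 3 (adjusted p up to 0.19), Lsd-2 also without driver replicate 4. Pepck2, which makes phosphoenolpyruvate for gluconeogenesis, had 26.2, 66.3, 44.2 and 50.0 CPM in KayKD libraries, against 10.9, 7.0, 8.1 and 18.6 CPM in driver libraries. The groups do not overlap (2.07, SE 0.32, adjusted p = 0.00013). Akh, the hormone that mobilises fat and sugar, was at 76.1 ± 14.8 CPM in KayKD and 36.9 ± 17.0 CPM in driver heads (1.00, adjusted p = 0.016), a call lost without KayKD replicate 3, driver replicate 2 or driver replicate 3 (adjusted p up to 0.079). Men, the malic enzyme that supplies NADPH, Tsf1, a secreted transferrin, and for, a cGMP-dependent kinase linked to foraging, were picked after their values were seen. Men was at 433 ± 58 CPM in KayKD and 216 ± 30 CPM in driver heads (1.01, adjusted p = 1.4e-05), Tsf1 at 832 ± 41 and 441 ± 184 CPM (0.91, adjusted p = 0.0039), and for at 473 ± 66 and 270 ± 30 CPM (0.81, adjusted p = 0.0042), KayKD before driver in each.

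Of 10 haemocyte markers tested, 3 rose and 0 fell, and the list was split evenly, with 5 positive and 5 negative log2 fold changes. NimC1, a phagocytosis receptor of plasmatocytes, had 3.22, 1.87, 6.25 and 4.03 CPM in KayKD libraries, against 0.70, 0, 0 and 0 CPM in driver libraries, 61 reads against 5 in all (3.63, adjusted p = 0.0037). The prophenoloxidases of crystal cells rose too: PPO1 was at 15.0 ± 3.8 CPM in KayKD and 5.1 ± 2.9 CPM in driver heads (1.69, adjusted p = 0.018), and PPO2 at 52.7 ± 18.7 CPM in KayKD and 28.0 ± 4.3 CPM in driver heads (0.96, adjusted p = 0.016). Without KayKD replicate 3 or driver replicate 2 neither PPO gene passed (adjusted p up to 0.097), nor did PPO2 without KayKD replicate 2. Hml and Pxn, the usual plasmatocyte markers, were at 0.48 (adjusted p = 0.27) and 0.52 (adjusted p = 0.26). The 5 negative members did not pass: the phagocytosis receptors eater at -1.46 (adjusted p = 0.38), NimC2 at -1.83 (adjusted p = 0.49) and Sr-CI at -0.50 (adjusted p = 0.55), the matrix protein Ppn at -0.34 (adjusted p = 0.46) and the GATA factor srp at -0.01 (adjusted p = 0.995). The list summed to 169 to 216 CPM in KayKD and 131 to 167 CPM in driver libraries.

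Among immune genes, the Imd pathway and antimicrobial peptide lists held no called gene. Of 19 Imd pathway genes, 16 had a positive log2 fold change, with a median of 0.42, and 0 were called by edgeR (3 at an unadjusted p under 0.05, at most 1 called in any alternative). The one with the lowest p was PGRP-LB, an amidase that degrades peptidoglycan, at 30.1 ± 3.6 CPM in KayKD and 15.6 ± 7.6 CPM in driver heads (0.95, adjusted p = 0.056). Of 14 antimicrobial peptide genes, 10 were positive with a median of 0.68, and 0 were called by edgeR (3 at an unadjusted p under 0.05, at most 2 called in any alternative). That median was 0.28 without KayKD replicate 2, 0.44 without KayKD replicate 4, 0.37 without driver replicate 1 and 0.19 by voom. AttA had 25.1, 234, 81.5 and 76.6 CPM in KayKD libraries, against 10.2, 24.3, 26.9 and 17.3 CPM in driver libraries (2.47, adjusted p = 0.059). One KayKD library lay inside the driver range, and the KayKD libraries differed among themselves more than the driver libraries did. CecB was read in 3 of 4 KayKD libraries and in no driver library (adjusted p = 0.054). Outside the antimicrobial list and picked after their values were seen, the drosomycin-like genes Drsl4 and Drsl5 fell. Drsl4 was at -1.29 (adjusted p = 0.0039) and Drsl5 at -0.75 (adjusted p = 0.004), and both were called lower at day 15 too. In the Toll branch GNBP3, a receptor for fungal glucan, rose (0.80, adjusted p = 0.028), a call lost without each of 6 libraries (KayKD replicates 1 to 3, driver replicates 2 to 4; adjusted p up to 0.13). Of 14 bomanin and Daisho genes, short secreted peptides under Toll control, BomT1 rose (1.72, adjusted p = 0.002) and BomS4 fell (-0.67, adjusted p = 0.019). At an unadjusted p under 0.05 by edgeR this list held 9 genes, against 1790 of all 9796. Its median was 0.15, with 9 members positive and 5 negative. Without driver replicate 1, 4 of the list were called higher and 0 lower. BomS4 lost its call without KayKD replicate 1, KayKD replicate 4, driver replicate 1 or driver replicate 3 (adjusted p up to 0.076). Near-identical copies within the attacin, cecropin and bomanin families may share reads. SPH93, a serine protease homologue, was at 1.38, 26.5, 0 and 22.6 CPM in KayKD libraries, against 0.14, 0.24, 0 and 0 CPM in driver libraries (6.4, adjusted p = 0.026). Only KayKD replicates 2 and 4 carry that difference, and the call was lost without either of them and without any one driver library (adjusted p up to 0.091).

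**Figure D3:**
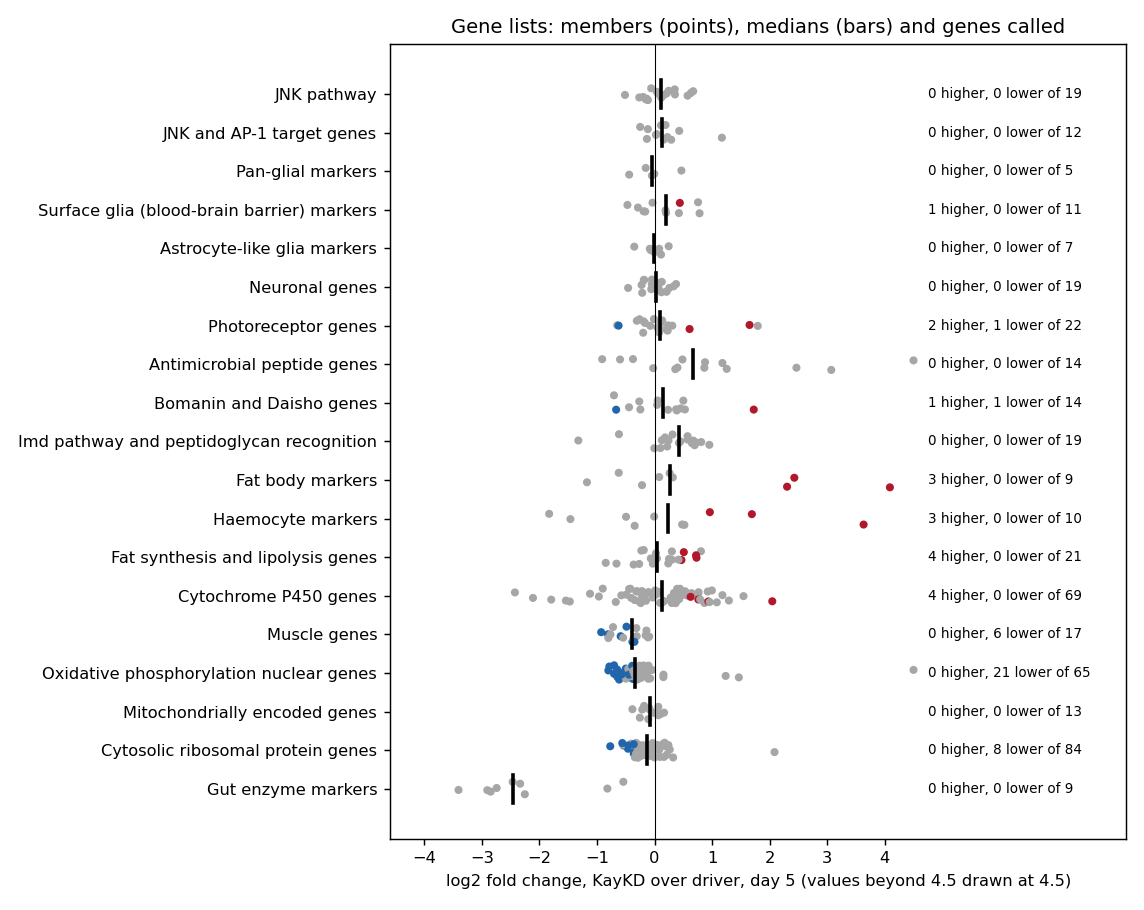
Log2 fold change of KayKD over driver at day 5 for the members of 19 gene lists (points; red called higher, blue called lower, grey not called), with the median of each list as a black bar and the calls written at the right. Fat body, haemocyte, lipid and P450 lists hold called genes on the higher side only, muscle, oxidative phosphorylation and ribosomal lists on the lower side only, and all 9 gut enzymes lie below 0 without a call.

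The broadest downward set was the nuclear genes of oxidative phosphorylation, the enzymes that make ATP in mitochondria. Of 65 tested, 21 fell and 0 rose, 60 had a negative log2 fold change, and the median was -0.34. The 21 span complex I (such as ND-30 and ND-B14.7), cytochrome c oxidase (COX6B, COX4, COX5A) and ATP synthase (ATPsynCF6, ATPsynD, ATPsynC). ND-30, a core complex I subunit, had 125, 133, 108 and 91.9 CPM in KayKD libraries, against 218, 196, 219 and 158 CPM in driver libraries. No KayKD value reached the lowest driver value (-0.79, SE 0.14, adjusted p = 0.00089). COX6B was at 586 ± 49 CPM in KayKD and 921 ± 224 CPM in driver heads (-0.65, adjusted p = 0.0018), and ATPsynCF6 at 293 ± 8 CPM in KayKD and 460 ± 136 CPM in driver heads (-0.65, adjusted p = 0.0024). Outside the list and picked after their values were seen, sun, the epsilon subunit of ATP synthase, fell by 0.79 on the log2 scale (adjusted p = 4.6e-05) and SdhB of complex II by 0.58 (adjusted p = 0.0091). The 13 genes encoded in mitochondrial DNA gave 0 calls (1 at an unadjusted p under 0.05, 0 called in any alternative) and a median of -0.09. The number that fell depended on the libraries: it was 8 without driver replicate 2, 9 without KayKD replicate 2, 10 without KayKD replicate 1 or driver replicate 3, 11 without KayKD replicate 3 and 15 without both shallow libraries, with medians of -0.31 to -0.35. With the 8 libraries fitted alone 2 were called.

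Muscle genes and some ribosomal protein genes lay lower in the same libraries. All 17 muscle genes had a negative log2 fold change, with a median of -0.38, and 6 fell: Act57B, Act88F, Mf, Mlc1, Mlc2 and bt, which encode actins, myosin light chains and filament proteins. Act57B had 315, 307, 356 and 356 CPM in KayKD libraries, against 477, 485, 536 and 509 CPM in driver libraries. The 2 groups are far apart relative to their spread (-0.59, SE 0.11, adjusted p = 0.0013). Mhc, the myosin heavy chain of all fly muscle, was at -0.09 (adjusted p = 0.71). Summed muscle levels were 5801 to 6554 CPM in KayKD and 7539 to 7871 CPM in driver libraries, without overlap, and their part in the lower oxidative phosphorylation values was not tested. Without KayKD replicate 2, without KayKD replicate 3 or without both shallow libraries, 3 of the 17 were called. With the 8 libraries fitted alone 2 were called, and with all libraries thinned to the shallowest 0. Mlc1 lost its call without driver replicate 3 (adjusted p = 0.065), and Act88F without KayKD replicate 2, KayKD replicate 3 or driver replicate 2 (adjusted p up to 0.1). Of 84 cytosolic ribosomal protein genes, 8 fell and 0 rose, with a median of -0.14. RpL40 was at 895 ± 178 CPM in KayKD and 1526 ± 680 CPM in driver heads, where replicate 3 held 2481 CPM. Its call (-0.77, adjusted p = 0.0091) was lost without driver replicate 3 or KayKD replicate 1 (adjusted p up to 0.1), and the list's 8 falls became 1 without KayKD replicate 1, driver replicate 2 or driver replicate 3, 3 without KayKD replicate 3, 5 without KayKD replicate 2, 3 without both shallow libraries and 0 with the 8 libraries alone, while 13 and 14 passed without driver replicates 1 and 4. Gapdh1, a glycolytic dehydrogenase, had 447, 461, 452 and 429 CPM in KayKD libraries, against 738, 872, 864 and 595 CPM in driver libraries. Its fall (-0.78, adjusted p = 4.3e-05) kept its call in all 19 alternatives, and it was the one called gene of 13 in glycolysis.

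Among called genes averaging at least 5 CPM, the largest falls were in digestive genes. The lysozyme genes LysD, LysB, LysE and LysP fell by 5.47, 5.34, 4.51 and 2.38 on the log2 scale. Among the genes tested LysD, LysE and LysP lie side by side, within 3L:1210717-1218696. LysD had 12.2, 3.75, 7.73 and 0 CPM in KayKD libraries, against 565, 331, 90.2 and 219 CPM in driver libraries. The driver libraries differ several-fold among themselves, yet each lies above every KayKD library (SE 1.40, adjusted p = 0.021). LysE kept its call without each library in turn. LysD lost it without KayKD replicates 2, 3 or 4, LysB without 5 libraries (KayKD replicates 1, 3 and 4, driver replicates 1 and 2) and LysP without 6 (any KayKD library, driver replicates 1 and 2), with adjusted p up to 0.11. Reads may be split between near-identical genes of this family. CG18179, a predicted serine protease, was at 0, 4.21, 0 and 0 CPM in KayKD libraries, against 74.7, 29.3, 24.2 and 19.0 CPM in driver libraries (-4.96, adjusted p = 0.014), a call lost without KayKD replicate 1 or 3 (adjusted p up to 0.057). All 9 gut enzyme markers (amylases, maltase and trypsin-like proteases) had a negative log2 fold change, with a median of -2.46, and 0 were called by edgeR (2 at an unadjusted p under 0.05, at most 1 called in any alternative). Jon25Bi had the lowest p of the 9, at 14.0, 35.6, 0.37 and 0 CPM in KayKD libraries, against 223, 178, 3.37 and 166 CPM in driver libraries (adjusted p = 0.23). The 9 markers summed to 132 to 1198 CPM in KayKD and 455 to 4813 CPM in driver libraries, so gut enzyme levels differed widely between libraries, and their part in the lysozyme values was not tested. CG16826 and CG34212 followed with -3.0 (adjusted p = 0.036) and -3.02 (adjusted p = 0.035). They lost their calls without any one of KayKD replicates 1, 3 and 4 and driver replicates 1 and 2, CG16826 also without driver replicate 3 (adjusted p up to 0.11).

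Photoreceptor genes moved singly. Of 22 tested, 2 rose and 1 fell, with a median of 0.09. Rh5, the blue-sensitive rhodopsin of a subset of inner photoreceptors, had 8.74, 9.37, 9.38 and 12.1 CPM in KayKD libraries, against 1.82, 5.05, 4.71 and 1.30 CPM in driver libraries. The groups are separate (1.65, adjusted p = 0.00089), while Rh6, expressed in the complementary inner cells, was at 0.22 (adjusted p = 0.37). trpl, a light-activated cation channel, was at 649 ± 92 CPM in KayKD and 425 ± 37 CPM in driver heads (0.61, adjusted p = 0.00032). Galphaq, the G protein of phototransduction, was at 355 ± 45 CPM in KayKD and 548 ± 164 CPM in driver heads (-0.62, adjusted p = 0.0049), with an adjusted p of 0.052 without driver replicate 3.

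Stress and detoxification genes were also mixed. The long noncoding RNA lncRNA:Hsromega, which gathers RNA-binding proteins in nuclear speckles and responds to heat, was outside every list and was picked after its values were seen. It had 5558, 5185, 5634 and 5256 CPM in KayKD libraries, against 2204, 2316, 2026 and 2836 CPM in driver libraries. The difference is far beyond the spread (1.21, SE 0.12, adjusted p = 4.8e-08) and kept its call in all 19 alternatives. Of 16 heat shock chaperones, stv, a cochaperone of Hsp70, rose (0.53, adjusted p = 0.014), a call lost without KayKD replicates 1 or 3 or driver replicates 2 or 3 (adjusted p up to 0.063). Of 69 cytochrome P450 genes 4 rose and 0 fell: Cyp4e3 (2.05, adjusted p = 0.001), Cyp6g1 (0.76, adjusted p = 0.0042), Cyp9b2 (0.63, adjusted p = 0.026) and Cyp4p1 (0.94, adjusted p = 0.045). Of this list 10 rose without driver replicate 1, and 2 without KayKD replicate 2, driver replicate 2 or driver replicate 3. Cyp9b2 lost its call without KayKD replicate 2 or driver replicates 2, 3 or 4, and Cyp4p1 without KayKD replicates 2, 3 or 4 or driver replicates 1, 2 or 3 (adjusted p up to 0.15). Of 31 glutathione S-transferases 2 fell and 0 rose: GstO3 was at 36.8 ± 3.5 CPM in KayKD and 72.1 ± 13.3 CPM in driver heads (-0.98, adjusted p = 0.00083), and GstE11 was at -1.12 (adjusted p = 0.0076). MtnA, a metallothionein that binds copper, was at 705 ± 85 CPM in KayKD and 432 ± 72 CPM in driver heads (0.71, adjusted p = 0.0043), while the mitochondrial peroxiredoxin Prx3 was at -0.53 (adjusted p = 0.046), a call lost without any one library but driver replicate 1 (adjusted p up to 0.14).

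Cuticle and odorant-binding genes, which are made by epidermis and support cells of sense organs, changed in both directions. Cpr49Ae had 154, 134, 174 and 132 CPM in KayKD libraries, against 310, 388, 447 and 366 CPM in driver libraries. Every driver library lay above every KayKD library (-1.34, SE 0.14, adjusted p = 2e-07). Of 31 cuticle protein genes tested, 2 fell (Cpr49Ae and Cpr47Ee) and 2 rose (Cpr72Ec and Cpr76Bc). Of 29 odorant-binding protein genes, 2 rose (Obp99b and Obp49a) and 2 fell (Obp56a and Obp56h). Cpr47Ee and Cpr49Ae kept their calls without each library in turn (Cpr47Ee lost its call in 5 of all 19 alternatives), and the other 6 did not (adjusted p up to 0.13): Obp56a lost its call without KayKD replicate 1, Cpr76Bc without KayKD replicate 2 or driver replicate 3, Cpr72Ec without KayKD replicates 1 or 3 or driver replicates 2 or 3, and Obp49a without KayKD replicates 1 or 4 or driver replicates 2 or 3. Obp99b lost it without KayKD replicates 1 or 3 or driver replicates 2, 3 or 4, and Obp56h without KayKD replicates 1, 3 or 4 or driver replicates 1, 3 or 4. Dh44, a CRF-like neuropeptide, rose (0.97, adjusted p = 0.012) and Nplp3 fell (-0.39, adjusted p = 0.045) among 31 neuropeptide genes, beside Akh above. Dh44 lost its call without KayKD replicate 1 or driver replicates 2 or 3, and Nplp3 without each of 6 libraries, all but KayKD replicate 4 and driver replicate 1 (adjusted p up to 0.12). Hr38, a nuclear receptor induced by neuronal activity, was at 1.37 (adjusted p = 0.028), a call lost without KayKD replicates 1, 3 or 4 or driver replicates 3 or 4 (adjusted p up to 0.14). Clock, Turandot, JAK-STAT, insulin, proteasome, V-ATPase, autophagy, extracellular matrix, VAP contact site and ALS orthologue lists gave 0 calls each by edgeR. At an unadjusted p under 0.05 by edgeR were 6 of 14 ALS orthologues, 2 of 4 Turandot, 5 of 16 autophagy and 9 of 32 proteasome genes tested. The clock list held 1 of 8, JAK-STAT 2 of 8, insulin 1 of 12, V-ATPase 3 of 23, extracellular matrix 3 of 16 and VAP contact site 0 of 11. Over all genes it was 1790 of 9796. Median log2 fold changes were 0.02 for ALS orthologues and 1.33 for Turandot genes. Each of these lists held at most 3 calls in one direction in any alternative. Of 11 testis markers, 8 had no read in the 8 libraries, and oenocyte markers summed to under 3 CPM in every library.

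Called genes lay on all arms. Of the genes tested, 1.8% were called on X (29 of 1611), 3.73% on 2L, 4.11% on 2R, 4.52% on 3L, 3.37% on 3R and 7.53% on chromosome 4 (7 of 93). The lysozymes above were the one run of at least 3 neighbouring genes called in the same direction.

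At day 15, against the 4 driver libraries of that age, KayKD heads had 62 higher (0.633%) and 60 lower (0.612%) genes, 122 in all (1.25% of 9796). Of the 173 genes higher at day 5, 140 had a positive log2 fold change at day 15 and 34 were called higher; of the 178 lower genes, 136 were negative and 23 were called lower. The 57 genes called in the same direction make up 16.24% of the day 5 calls and 46.72% of the day 15 calls. They include CG11313, Rh5, trpl, NimC1, Cyp4e3, MtnA, bmm, Men and for on the higher side and Cpr49Ae, LysP, Had2, GstE11, Drsl4, Drsl5 and Syt7 on the lower side. Pepck2 was at 131 ± 44 CPM in KayKD and 11.3 ± 2.5 CPM in driver heads at day 15 (3.54, adjusted p = 6.7e-09). lncRNA:cherub, picked after its values were seen, was at -1.62 (adjusted p = 0.00013) at day 5 and -2.09 (adjusted p = 2e-06) at day 15.

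**Figure D4:**
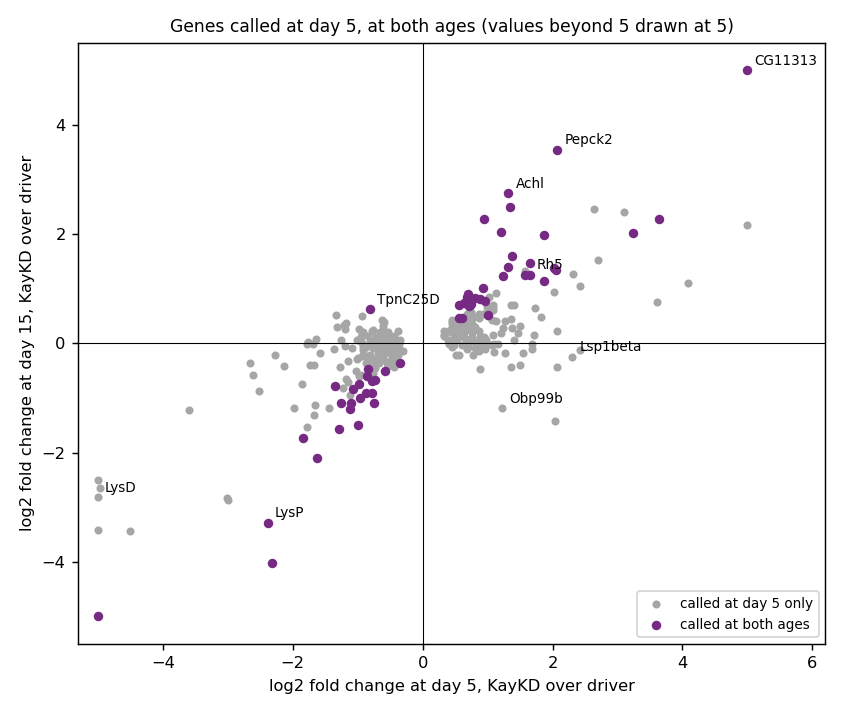
Log2 fold change of KayKD over driver at day 15 (vertical) against day 5 (horizontal) for the 351 genes called at day 5, each age against its own driver libraries. Purple points are called at both ages, in the same direction apart from TpnC25D; Lsp1beta and Obp99b lie right of 0 and below 0.

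The change with age was itself tested, and 15 genes passed (0.153% of 9796), 7 with a larger (0.0715%) and 8 with a smaller (0.0817%) value at day 15. Among them Lsp1beta was at -0.25 at day 15 (335 ± 84 CPM in KayKD and 397 ± 110 CPM in driver heads) against 2.30 at day 5, a change of -2.55 (SE 0.46, adjusted p = 0.0058). lncRNA:Hsromega was at 0.18 at day 15 against 1.21 at day 5 (change -1.02, adjusted p = 0.00074). Act57B went the other way, with 0.40 at day 15 against -0.59 at day 5 (change 0.99, adjusted p = 0.00074), and TpnC25D, a troponin C, was called at both ages with opposite signs, 0.62 and -0.81 (change 1.43, adjusted p = 0.0008). None of the 21 oxidative phosphorylation genes of the list called at day 5 was among the 15. The ATP synthase subunit sun, outside that list, was among them. It was at -0.0009 at day 15 against -0.79 at day 5 (change 0.79, adjusted p = 0.017). The medians of the oxidative phosphorylation, muscle and ribosomal lists at day 15 were -0.12, 0.06 and -0.0032.

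The KayWT and KaySCR arms, described in the study's design as overexpressing wild-type Kayak or KayakSCR, a form the labels do not define, share the 4 day 5 driver libraries with the knockdown, so their values are given side by side only (the plot of 8 genes in the 4 arms). Some genes had their highest mean in KayKD: Pepck2 averaged 46.7 CPM in KayKD, 7.30 in KayWT, 3.77 in KaySCR and 11.2 in driver heads, and CG4757, a predicted carboxylesterase, 99.98, 8.26, 6.27 and 14.5 CPM in the same order. MtnA averaged 705 CPM in KayKD, 279 in KayWT, 217 in KaySCR and 432 in driver heads. Others were on the same side in all 3 arms: Rh5 averaged 9.90 CPM in KayKD, 26.9 in KayWT, 41.5 in KaySCR and 3.22 in driver heads, NimC1 3.84, 6.44, 4.17 and 0.18 CPM, and Act57B 334, 295, 272 and 502 CPM. The hexamerins were of this kind too. Lsp2 averaged 1114 CPM in KayKD, 1123 in KayWT, 551 in KaySCR and 203 in driver heads. Lsp1beta averaged 945, 451, 312.5 and 190 CPM in the same order, and Lsp1alpha 22.3, 4.12, 2.94 and 1.05 CPM. For genes of this second kind, 3 like effects and an unusual driver group cannot be told apart.

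**Figure D5:**
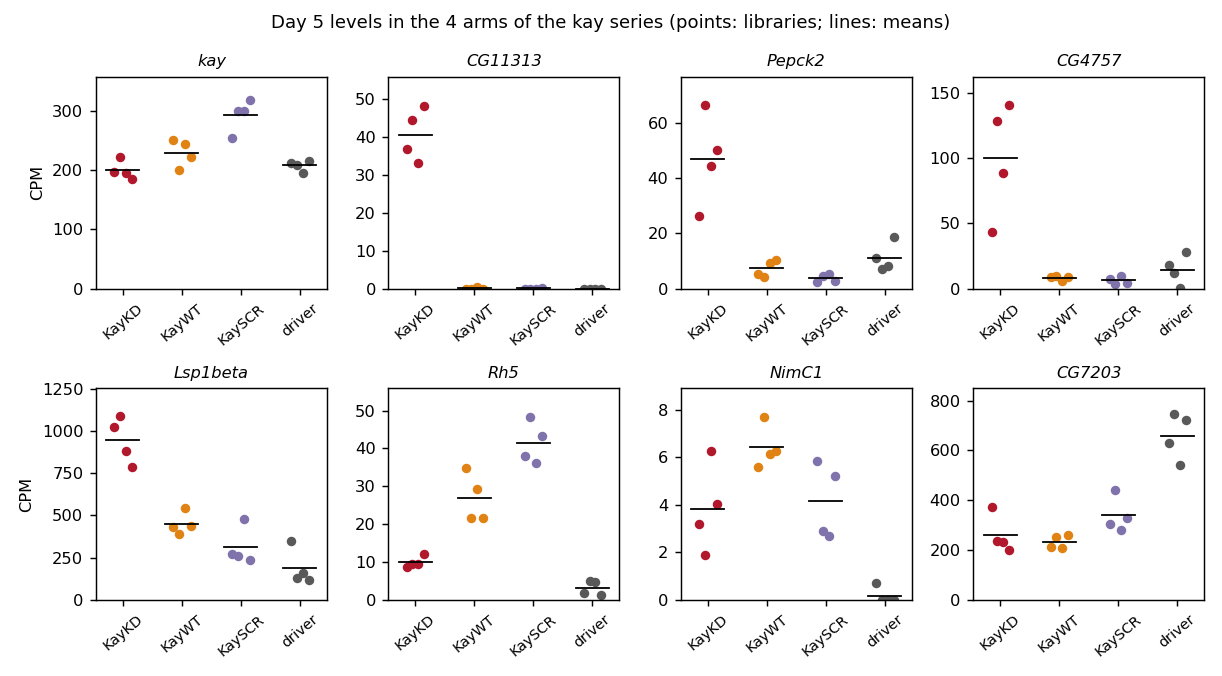
CPM of 8 genes at day 5 in each library of KayKD, KayWT, KaySCR and driver heads, with means as lines. CG11313, Pepck2 and CG4757 have their highest means in KayKD, Rh5 and NimC1 are low and CG7203 is high in driver heads against all 3 other arms, and kay is highest in KaySCR.

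P58S against wild-type VAP without the driver was profiled in separate libraries, in which 191 genes (1.96% of 9741) were called at day 5, 0.842% higher and 1.12% lower. Of the knockdown's 173 higher genes, 171 were tested there, 73 positive and 98 negative, with 3 called in each direction. Of the 178 lower genes, 177 were tested, 80 positive and 97 negative, with 3 called higher and 6 lower. The 15 genes called in both comparisons include Syt7, a calcium sensor of vesicle release on chromosome 4. It had 112, 122, 136 and 93.6 CPM in KayKD libraries, against 185, 212, 220 and 186 CPM in driver libraries. All KayKD values lie below all driver values (-0.78, adjusted p = 0.00023), while P58S heads had more Syt7 than wild-type heads (1.43, adjusted p = 9.1e-08). Rh5 also had opposite signs, 1.65 for the knockdown and -1.31 (adjusted p = 1.9e-05) for P58S, as did for, at 0.81 and -0.67 (adjusted p = 0.0045). CG7203, CG4000, pst and lectin-28C were lower in both, and hzg, Cyp4e3 and TwdlG higher in both. These genes were picked after their values were seen.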

How the data were processed

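RNA of fly heads was sequenced from the 3′ end; per the labels' protocols it was extracted with phenol and chloroform and a V2 3′ mRNA forward kit with unique dual indices served for males. Raw counts were deposited for 23996 features, and library sizes and tests used only the 17830 gene features. The build is dm6, per the submitters' processing notes. Not given in the sources used here: aligner, counter, annotation release and strand setting, which leaves antisense genes uncertain. Symbols and positions of 17751 genes were looked up in Ensembl's BDGP6 annotation (dm6 coordinates). Columns without a sample numbered 0.

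The main test was edgeR 4.0.16 (quasi-likelihood, TMM, filterByExpr, R 4.3.3) over all 32 male libraries of the kay series (1.21 to 15.0 M reads), with 1 mean per genotype and age, calling genes at an adjusted p under 0.05. P58S was fitted over 24 other libraries. SE is the absolute log2 fold change over the root of F. Levels are CPM on TMM-scaled totals, and list sums are CPM on plain totals. Alternatives were RLE scaling, other filters, DESeq2 1.42.0, limma 3.58.1 voom, fewer libraries and left-out replicates. Scripts were tested on simulated data.

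Members, the 46 lists and tests were chosen with earlier results of these data known. The named genes are kay, Jra, repo, Vap33, w, the 12 highest and 12 lowest called genes with at least 5 CPM, and up to 4 called members per list or its lowest p. Added after values were seen were the genes of the change with age and those called in both the KayKD and P58S comparisons. Others, such as Men, Tsf1 and SdhB, were then picked by hand. Counts over the named genes include all of these. One gene of the change with age is not reported here. Same-numbered replicates did not deviate together (r of -0.0639 to 0.0785 at day 5).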

Additional observations from a re-analysis of the deposited data

Results flagged for a closer look

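Among 214 groups of 4 libraries, 13 held 1 library that lay far from the other 3 (Dixon's ratio, where chance gives about 1 in 20). Groups with every level under 1 CPM, such as CG11313 in driver heads, were not examined, so fewer than 214 were looked at. KayKD replicate 4, the shallowest library, was such a library 6 times: Mlc1 at 241.1 CPM, GstO3 at 41.94, bmm at 106.5, Cpr47Ee at 5.645, Jra at 38.71 and w at 11.29 CPM, against 140.3 to 148.7, 34.4 to 35.63, 90.8 to 92.71, 18.39 to 20.97, 13.11 to 15.63 and 18.58 to 18.96 CPM in KayKD replicates 1 to 3. In other KayKD libraries it was Lsp1alpha at 42.3 CPM in replicate 1, and CG18179 at 4.214 and Tsf1 at 892.7 CPM in replicate 2. In driver heads it was Lsp2 at 587.4, CG16826 at 408.7 and Drsl4 at 198.1 CPM in replicate 1, and crc at 43.71 CPM in replicate 4.

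The difference between KayKD and driver heads also changed with age by edgeR's interaction test for the genes that follow. The day 15 minus day 5 difference in log2 fold change was positive for CG43402 (2.317, adjusted p = 0.00033), CG7203 (1.848, adjusted p = 0.00048), TpnC25D (1.425, adjusted p = 0.0008), Mlp60A (1.051, adjusted p = 0.031), Act57B (0.9856, adjusted p = 0.00074) and sun (0.793, adjusted p = 0.017). It was negative for CG1979 (-3.461, adjusted p = 0.0499), Lsp1beta (-2.55, adjusted p = 0.0058), Obp99b (-2.412, adjusted p = 0.012), CG16926 (-1.891, adjusted p = 0.031), retinin (-1.656, adjusted p = 0.00074), enok (-1.348, adjusted p = 0.022), egl (-1.253, adjusted p = 0.013) and lncRNA:Hsromega (-1.024, adjusted p = 0.00074).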

How the results depend on the processing

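The 351 calls at day 5 became 340 with RLE scaling (155 higher, 185 lower), 281 without a filter, 335 with a filter of 1 CPM in 4 libraries, 525 by DESeq2, 143 by voom with sample weights, 177 with the 16 day 5 libraries, 72 with the 8 libraries alone, and 172 to 629 with 1 library left out. Chosen after seeing the data, leaving out both shallow libraries gave 177 and thinning all libraries to the shallowest 27, since fewer reads call fewer genes. With the replicate block the count was 330, of which 304 were among the 351, and with the 8 libraries and the block 37; same-numbered libraries share only a number. At day 15, 122 became 240 by DESeq2, 104 with the block and 59 to 132 with 1 library left out. The 15 genes of the change with age became 61 by DESeq2, 21 with the block and 8 to 52 with 1 library left out. P58S against wild type gave 191, and 81 with the block, 309 by DESeq2 and 91 to 365 with 1 library left out; the cause of these shifts was not tested. Of the 102 named genes that were called, all kept their direction and 50 their call with each of the 8 libraries left out in turn, and 8 were called in all alternatives run. Among genes not called, dj, with under 3 CPM in every library, ranged from -3.34 without KayKD day 5 replicate 2 to 4.97 without driver day 5 replicate 1, and with thinned libraries wrapper turned to -0.29 and CG43402 to -0.0224. Depth limits genes under about 5 CPM: 13 of the 351 lie there.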
